A study of Arabidopsis thaliana with 18 samples.

Results

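The comparison described here is that of wild type (WT) Arabidopsis thaliana rosettes grown with nitrate at 0 mM against those grown with nitrate at 2 mM. It took 6 of the 18 libraries of the series, 3 at each dose, chosen by their titles, and covers every gene in the count tables. Of 32744 genes, 18358 had enough counts to be tested. The study profiled polyA RNA with a stranded 3' tag kit (QuantSeq), which counts reads near the transcript end, in WT and in the era1 mutant at 0, 2 and 10 mM nitrate, and its title places it in nitrogen starvation. All 6 libraries came from plants on potting soil at 24 °C by day and 19 °C by night, 50% humidity and light of 100 µmol m-2 s-1. Rosettes were taken at Boyes stage 5.10, when the first flower buds are visible, with 100 mg of tissue each. Both groups shared this treatment and differed in the labels by the nitrate dose only, and the labels used here name no ecotype, no hour of harvest and no nitrate content of the soil. The submitters describe the 3 libraries at a dose as biological replicates, but not whether a library is a single plant or a pool. The p-values therefore rest on the spread between libraries of a group, estimated over all 18 libraries.

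Nitrate is the main nitrogen source of many plants and also a signal: its arrival induces transporters, nitrate and nitrite reductase and a set of regulators, and its lack slows growth and raises flavonoid pigments. The circadian clock is a set of regulators that repress each other in turn. Morning factors such as CCA1 and LHY hold down evening genes such as TOC1, GI and the evening complex genes ELF3, ELF4 and LUX, and the clock times photosynthesis, starch turnover, cold response genes and the growth of stems and leaves over the day.

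The expression of 7782 of 18358 genes differed between the doses, or 42.4%, by edgeR's quasi-likelihood test at a false discovery rate (FDR, the Benjamini-Hochberg adjusted p) under 0.05. Of these, 3723 (20.3% of the genes tested) were higher at 0 mM and 4059 (22.1%) were lower. A change of at least 2-fold was found for 1280 genes higher (6.97%) and 1265 lower (6.89%), and of at least 4-fold for 360 and 361. The 3 libraries of one dose did not overlap those of the other for 9225 genes (50.3%). Throughout, a log2 fold change is 0 mM minus 2 mM, so positive values are higher at 0 mM, and its error is the standard error (SE). Its median over all genes tested was -0.029. Levels are in CPM, gene counts scaled to the size of each library, which with 3' tags are not scaled by gene length, so they are compared between libraries and not between genes. Genes are grouped in lists by role, a list's counts are read against the shares over all genes, and members named below beyond the stated rule for names were picked for their role with their values known. In whole rosettes, fewer cells of a type and less RNA per cell cannot be told apart.

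The 6 libraries held 4921485 to 5594584 gene counts and 20874 to 21131 detected genes. Organelle transcripts took 3.99% to 4.34% of gene counts at 0 mM and 3.80% to 4.04% at 2 mM (exact permutation test, two-sided, p = 0.4, where 3 against 3 cannot go below 0.1). Of 5 leaf mesophyll markers, 3 were higher at 0 mM, among them the carbonic anhydrases CA1 and CA2 (0.69 ± 0.11 and 0.99 ± 0.10), and 1 was lower. Floral organ markers summed to 3.59 to 4.51 CPM at 0 mM and 2.59 to 5.22 CPM at 2 mM, and 7 of 9 root markers were too low to be tested. Root markers summed to 26.8 to 36.1 CPM at 0 mM and 38.8 to 47.1 CPM at 2 mM, with no overlap. Of the 2 tested, FRO2 was higher (1.02 ± 0.39, FDR 0.0364) and PYK10 lower (-0.64 ± 0.26, FDR 0.0475), and each call was lost by DESeq2 and without several single libraries. Guard cell markers summed to 84.8 to 92.3 CPM at 0 mM and 89.9 to 107 CPM at 2 mM, and phloem companion cell markers to 446 to 493 CPM and 393 to 475 CPM, so that the doses overlapped for both. On the first principal component of all 18 libraries, with 35.5% of the variance, WT libraries at 2 mM lay at -67.9 to -61.5, those at 0 mM at 27.1 to 33.0 and those at 10 mM at 20.2 to 22.8. The 10 mM libraries therefore did not lie beyond the 2 mM ones on this axis. On the second component, with 29.74% of the variance, WT libraries at 10 mM lay apart, at 59.97 to 65.35. Those at 0 mM lay at -2.904 to 8.332 and those at 2 mM at 4.649 to 9.34. In WT at 10 mM, organelle transcripts took 1.9217% to 2.1987% of gene counts, below both other doses. Reads not assigned to one place were 1.8947% to 2.3022% at 10 mM and at least 4.6847% at the other doses. Whether these differences come from the dose was not tested. Levels at 10 mM are given beside the results. Single libraries stood apart at few genes. Among the 4612 genes that reached 50 CPM at 2 mM, the second 2 mM library was more than 2-fold below the rest of its group at 4, and among 4670 such genes at 0 mM the first 0 mM library was more than 2-fold above the rest of its group at 7.

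The clock genes differed strongly between the doses. Of 12 tested morning clock genes, 10 were higher at 0 mM and 1 lower (all genes: 20.3% higher, 22.1% lower), with a median log2 fold change of 1.89. Of 12 tested evening clock genes, 10 were lower at 0 mM and none higher, with a median of -2.03. Summed over its members, the morning list reached 2365 to 2524 CPM in the 0 mM libraries and 505 to 573 CPM in the 2 mM libraries. The evening list, with 1 more member that was too low to test, summed to 234 to 256 CPM at 0 mM against 690.4 to 727 CPM at 2 mM.

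LHY (AT1G01060), a MYB-like repressor at the core of the morning loop, had 741, 726 and 752 CPM in the 0 mM libraries and 33.7, 29.6 and 24.8 CPM in the 2 mM libraries. Its partner CCA1 (AT2G46830) had 235, 243 and 258 CPM at 0 mM and 15.2, 15 and 15.9 CPM at 2 mM. All 3 libraries at 0 mM were far above all 3 at 2 mM for both genes, with log2 fold changes of 4.65 ± 0.094 (FDR 3.49e-22) and 3.99 ± 0.094 (FDR 6.68e-21). RVE8, a related factor that activates evening genes, had 129, 126 and 134 CPM against 11.5, 8.84 and 8.41 CPM, a change of 3.76 ± 0.11. RVE1, which links the clock to auxin synthesis, had 104, 94 and 91.5 against 9.14, 5.55 and 6.68 CPM, a change of 3.76 ± 0.13. The LNK genes, which encode coactivators that work with RVE8, were all higher at 0 mM, by 1.62 for LNK1, 2.38 for LNK2, 2.16 for LNK3 and 1.14 for LNK4. RVE4 rose by less (0.48 ± 0.086, FDR 4.97e-05). RVE2 had few reads, at 2.27, 1.57 and 2.22 CPM against 0.871, 1.03 and 0 CPM, and its call (FDR 0.0188) was lost without the third 2 mM library. The exception was RVE7 (EPR1), with 17.6, 19.6 and 20.1 CPM at 0 mM and 51.6, 45 and 48.7 CPM at 2 mM, which fell by 1.34 on the log2 scale. PRR9, the first of the PRR repressors to peak in the day, had 4.75 ± 0.52 CPM at 0 mM and 3.18 ± 0.63 CPM at 2 mM (SD, n = 3) and did not pass the test (FDR 0.0733), though it did without the second 2 mM library.

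Most genes of the evening list went the other way, and some had almost no reads at 0 mM. PRR5 (AT5G24470), a repressor of CCA1 and LHY, had 0 counts in all 3 libraries at 0 mM and 9.79, 14.6 and 14.2 CPM at 2 mM, at least 68.0-fold lower when 3 counts are taken as the floor over the group. FKF1, a blue-light receptor that acts with GI in day-length sensing, had 3 counts over the 0 mM group and 207 over the 2 mM group, a ratio of 77.4 (95% exact interval 26.1 to 378, for counting error only). For both genes every library at 2 mM lay above every library at 0 mM. TOC1 (AT5G61380) had 3.78, 6.27 and 4.44 CPM at 0 mM and 25.9, 26.9 and 24.1 CPM at 2 mM, and GI had 30.6, 28.6 and 28.3 against 97.3, 87.2 and 112 CPM. They fell by 2.41 and 1.76 on the log2 scale, with no overlap. The evening complex genes ELF3, ELF4 and LUX (PCL1) changed by -2.06 ± 0.20, -3.68 ± 0.32 and -1.53 ± 0.20. PRR7, counted in the evening list although it is a daytime PRR gene, went from 137 ± 4.95 CPM at 2 mM to 44.1 ± 3.99 CPM at 0 mM. CHE (listed as TCP11), a repressor of CCA1, went from 291 ± 9.12 to 73 ± 8.19 CPM. PRR3, another member of the PRR family, changed by -2.97 ± 0.46. ZTL and LKP2, the relatives of FKF1, did not pass the test, with 0.11 ± 0.10 (FDR 0.387) and 0.033 ± 0.14 (FDR 0.879). ZTL, which marks TOC1 for breakdown, is known to be regulated mainly as a protein.

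**Figure D1:**
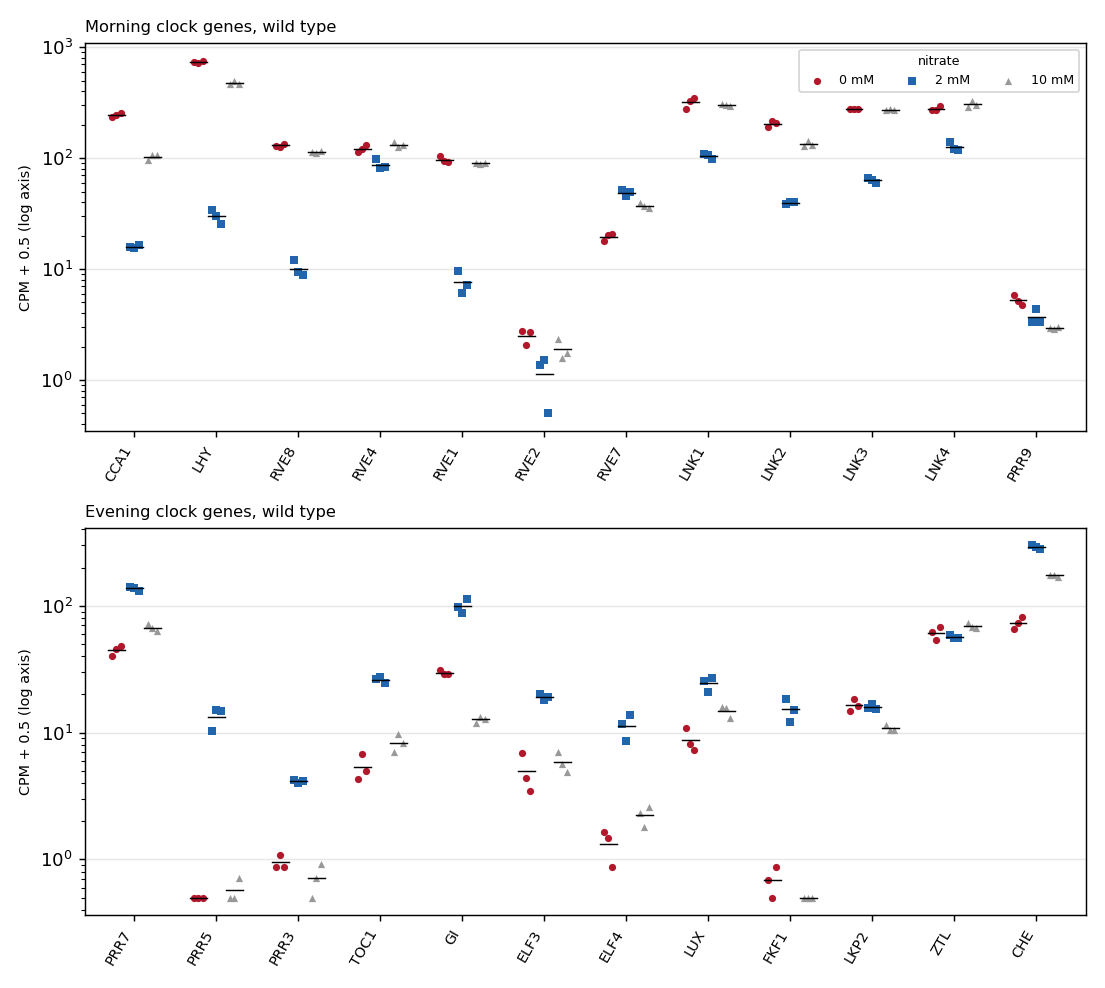
Level of each tested morning (top) and evening (bottom) clock gene in each WT library, as CPM plus 0.5 on a log axis, with a bar at the group mean of 3 libraries. Red circles are 0 mM, blue squares 2 mM and grey triangles 10 mM; LHY lies at 726 to 752 CPM at 0 mM and 24.8 to 33.7 CPM at 2 mM, and PRR5 has 0 counts at 0 mM.

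The levels of the clock genes did not follow the order of the doses. LHY had 477 ± 15.5 CPM at 10 mM, CCA1 102 ± 5.98, TOC1 7.82 ± 1.34 and PRR5 0.0694 ± 0.12 (SD, n = 3), and the morning list summed to 1948 to 2013 CPM there. On the log scale, levels at 10 mM thus lay nearer to those at 0 mM than to those at 2 mM for these 4 genes. In era1, 10 of 12 morning genes were higher and 1 lower at 0 mM, and 1 of 12 evening genes was higher and 10 lower. The change differed between genotypes for 2 of the morning and 6 of the evening genes by the interaction term (all genes: 23.1%). The labels give no hour of harvest, so a difference in the time of day between the groups and an effect of the nitrate dose cannot be told apart in these libraries, and the share of any other group below that moves with the clock was not tested.

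Of 19 tested clock output and photoperiod genes, 11 were higher and 7 lower at 0 mM, and 16 of these 18 changed by at least 2-fold. CAT2, a leaf catalase that peaks in the morning, had 1794, 1791 and 1521 CPM at 0 mM and 249, 258 and 246 CPM at 2 mM, while CAT3, a catalase that peaks in the evening, had 662, 809 and 826 and 2354, 2287 and 2333 CPM. The pair thus moved in opposite directions, by 2.76 ± 0.07 and -1.60 ± 0.077, with no overlap for either. GRP7, an RNA-binding protein of an evening feedback loop, had 261, 201 and 251 CPM against 2041, 1982 and 2229 CPM (-3.13 ± 0.084), and its relative GRP8 (CCR1) changed by -2.21 ± 0.087. COL2, a CONSTANS relative, went from 16.9 ± 3.08 CPM at 2 mM to 260.1 ± 22.1 CPM at 0 mM (3.94 ± 0.11). SIG5 (SIGE), a sigma factor that carries clock timing to the chloroplast genome, changed by 2.96 ± 0.094, and CDF1, CDF2 and CDF3, which repress CONSTANS, by 0.94, 1.82 and 0.80. The early light-inducible genes ELIP1 and ELIP2 were higher at 0 mM: ELIP1 had 50.8, 33.5 and 34 against 1.52, 0.822 and 1.51 CPM, and ELIP2 had 97 counts over the 0 mM group against 3. The cold regulators DREB1A, DREB1B (CBF1) and DREB1C (CBF2) were lower at 0 mM, by 5.73, 2.56 and 1.66 on the log2 scale.

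Across the other lists, photosystem genes, starch degradation, autophagy and auxin response were mostly lower at 0 mM, and flavonoid enzymes, Calvin cycle, glucosinolate, metal and heat shock genes mostly higher. Genes of nitrogen uptake and assimilation went both ways.

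**Figure D2:**
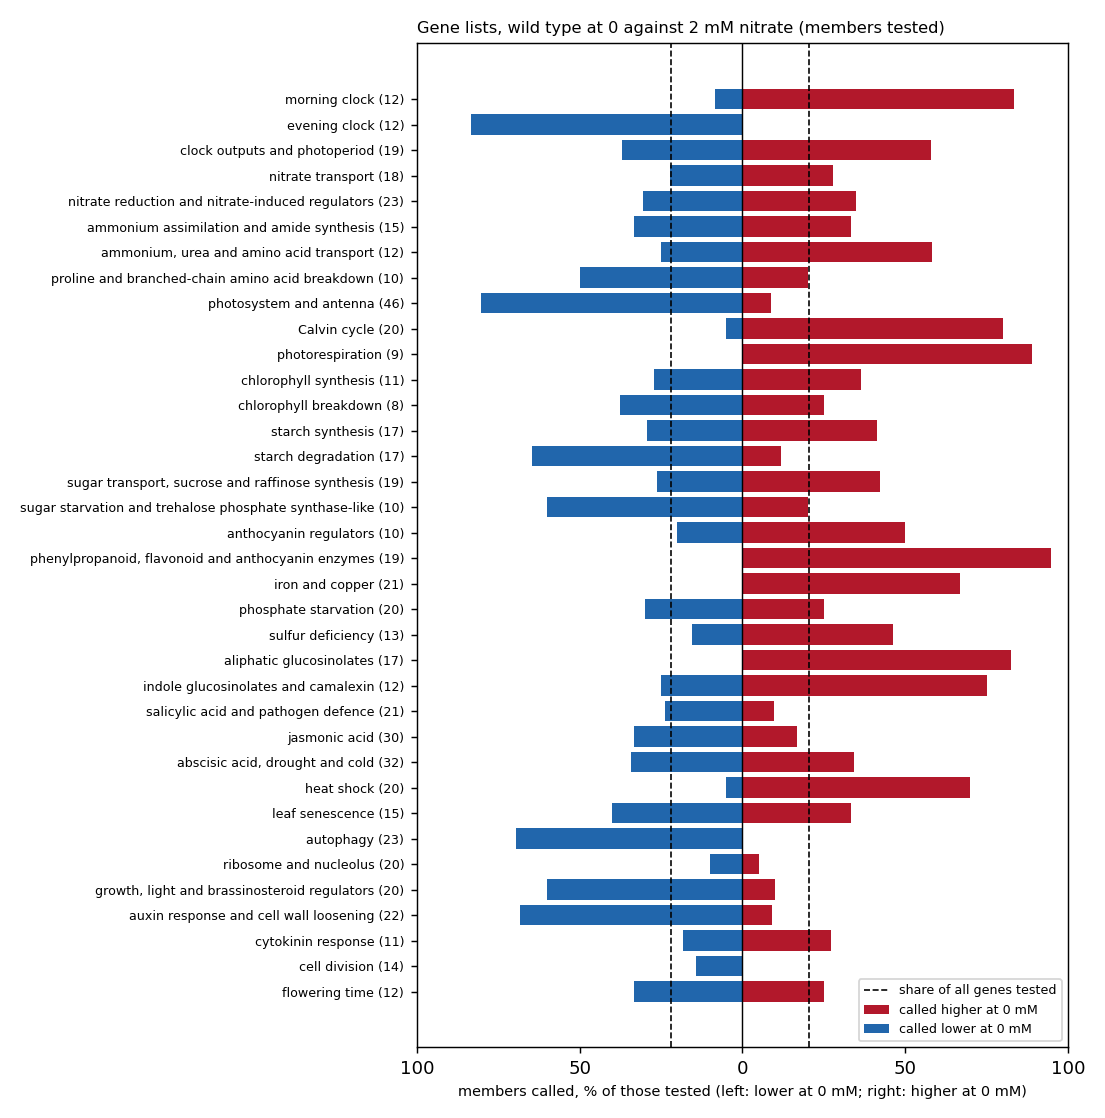
Share of the tested members of each gene list called higher (red, right) or lower (blue, left) at 0 mM than at 2 mM in WT, in percent, with the number tested in parentheses. The dashed lines mark the shares over all 18358 genes, 20.3% higher and 22.1% lower; the evening clock reaches 83.3% lower and the flavonoid enzymes 94.7% higher.

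Of 18 tested nitrate transport genes, 5 were higher (27.8%) and 4 lower (22.2%) at 0 mM, not far from the shares over all genes (20.3% and 22.1%). Their median log2 fold change was 0.24. NRT1.1 (AT1G12110), the transporter that also senses nitrate, had 233, 205 and 226 CPM at 0 mM and 68.3, 86.1 and 69.8 CPM at 2 mM. All 0 mM libraries were above all 2 mM ones, by 1.56 ± 0.089 (FDR 1.2e-13), and the mean at 10 mM was 80.9 CPM. NRT1.5, which loads nitrate into the xylem in roots, changed by 2.12 ± 0.19, and NRT2.7, a vacuolar nitrate transporter known from seeds, by 1.02 ± 0.13. The chloride channel family members CLC-A and CLC-B moved apart. CLC-A, the vacuolar nitrate and proton exchanger, had 81.4, 75.4 and 79.7 CPM at 0 mM against 147, 132 and 147 CPM at 2 mM and 179 CPM at 10 mM, and fell by 0.85 on the log2 scale. CLC-B had 24.2, 25.5 and 29.2 against 4.14, 2.47 and 4.74 CPM, a rise of 2.80 ± 0.18. NRT1.11 and NRT1.12, phloem transporters that move nitrate to young leaves, were lower at 0 mM (-0.65 ± 0.12 and -0.77 ± 0.11). The high-affinity transporters NRT2.1, NRT2.2, NRT2.3 and NRT2.4, best known from roots, were too low to be tested. NRT2.5, a marker of nitrogen starvation, was at or near 0 in all 6 libraries (0, 0 and 0.37 CPM against 0, 0 and 0 CPM) and did not pass the test.

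Genes that nitrate is known to induce did not move as a block. Of 23 tested genes of nitrate reduction and nitrate-induced regulation, 8 were higher and 7 lower at 0 mM (34.8% and 30.4%, all genes: 20.3% and 22.1%). NIA1, a nitrate reductase gene, had 96.1, 57.8 and 54.2 CPM at 0 mM and 72.7, 62.1 and 48.1 CPM at 2 mM, which overlapped (FDR 0.462), and 444 ± 69.6 CPM at 10 mM. NIA2, the other nitrate reductase, had 902, 840 and 855 CPM at 0 mM, 408, 444 and 369 CPM at 2 mM and a mean of 803 CPM at 10 mM. It was higher at 0 mM by 1.09 ± 0.084, with no overlap. Nitrite reductase, NIR1, was also higher at 0 mM (0.60 ± 0.12, FDR 0.000128), as was G6PD2, a supplier of reducing power (1.10 ± 0.19). The regulators split. BT2 (AT3G48360), a nitrogen-responsive BTB protein that limits nitrate uptake, had 1.13, 1.18 and 2.77 CPM at 0 mM and 20.7, 17.3 and 28.9 CPM at 2 mM, with 30.3 CPM at 10 mM, and changed by -3.69 ± 0.37. BT4 had 2.46, 3.92 and 3.88 against 44.4, 34.3 and 39.2 CPM but only 1.8 CPM at 10 mM. BT1 and BT5 were higher at 0 mM (0.61 ± 0.18 and 1.36 ± 0.16). LBD37, LBD38 and LBD39, nitrate-induced repressors of anthocyanin synthesis, were lower at 0 mM by 0.27, 0.98 and 0.66 on the log2 scale, with LBD38 at 22.7, 16.9 and 20.3 CPM against 40.3, 35.8 and 42.5 CPM. HRS1, a nitrate-induced repressor, had 0 counts at 0 mM and 9 at 2 mM, at least 3.36-fold lower, and its call rested on the second 2 mM library.

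**Figure D3:**
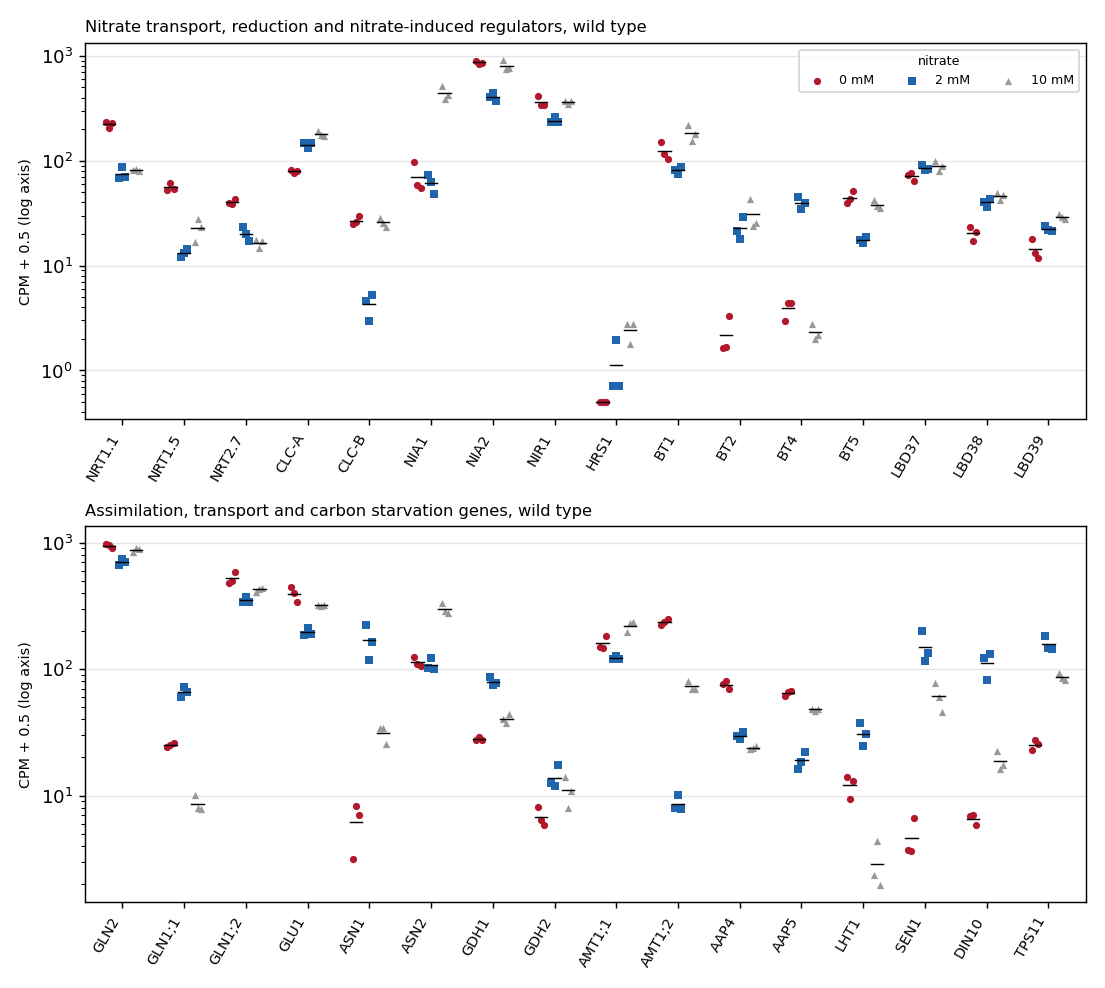
Level of selected nitrogen genes (top) and of assimilation, transport and carbon starvation genes (bottom) in each WT library, as CPM plus 0.5 on a log axis, with a bar at the mean of 3 libraries; colours as for the clock genes. NIA1 overlaps between 0 and 2 mM and reaches a mean of 444 CPM at 10 mM, while ASN1 lies at 117 to 224 CPM at 2 mM and 2.64 to 7.84 CPM at 0 mM. The genes were picked to show both directions.

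ASN1, SEN1 and DIN10, which darkness and sugar shortage are known to induce, were among the genes lowest at 0 mM relative to 2 mM. ASN1 (AT3G47340), which makes asparagine for nitrogen transport, had 2.64, 7.84 and 6.47 CPM at 0 mM and 224, 117 and 162 CPM at 2 mM, with a mean of 30.9 CPM at 10 mM. It fell by 4.89 on the log2 scale, and no 0 mM library reached 8 CPM. SEN1 had 3.21, 3.13 and 6.1 against 199, 115 and 134 CPM and DIN10 6.42, 6.46 and 5.36 against 121, 82.2 and 130.4 CPM, with changes of -5.15 ± 0.26 and -4.19 ± 0.20. The trehalose phosphate synthase-like genes TPS8, TPS10 and TPS11, regulators that respond to sugar, were lower at 0 mM (-1.68, -1.73 and -2.67), while TPS5 was higher (1.73). In the sugar starvation list as a whole, 6 of 10 tested members were lower and 2 higher, with a median of -1.45, and 1 was higher by DESeq2 or without the first 0 mM or the first 2 mM library. DIN11, the other higher member, had 26.4, 6.27 and 1.11 CPM at 0 mM and 1.52, 3.08 and 3.66 CPM at 2 mM. Only the first 0 mM library was far above the 2 mM ones, and without it the change was 0.42 ± 0.57 (FDR 0.612).

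Among 15 tested genes of ammonium assimilation, 5 were higher and 5 lower (33.3% each, all genes: 20.3% and 22.1%). The chloroplast enzymes GLN2 and GLU1 were higher at 0 mM. GLN2 (GS2), the leaf glutamine synthetase that recovers photorespiratory ammonium, had 983, 952 and 907 CPM against 662, 739.9 and 706 CPM (0.43 ± 0.067). GLU1, the ferredoxin glutamate synthase, had 442, 398 and 339 against 184, 211 and 189 CPM (1.01 ± 0.081). The cytosolic synthetase GLN1;1 (GSR 1) had 23.6, 24.5 and 25.7 against 60.1, 72 and 65.5 CPM and was lower at 0 mM (-1.42 ± 0.12), while GLN1;2 was higher (0.57 ± 0.077). GDH1 and GDH2, glutamate dehydrogenases that act when carbon is short, were lower at 0 mM (-1.52 ± 0.11 and -1.09 ± 0.25). GDH3 was higher, as was the asparaginase ASPGB1 (1.57 ± 0.37 and 2.73 ± 0.50).

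Of 12 tested genes of ammonium, urea and amino acid transport, 7 were higher and 3 lower at 0 mM (58.3% and 25%, all genes: 20.3% and 22.1%). AMT1;2 (AT1G64780), an ammonium transporter, had 221, 234 and 249.9 CPM at 0 mM, 7.4, 9.66 and 7.33 CPM at 2 mM and 72.4 ± 6.16 CPM at 10 mM. The change of 4.84 ± 0.13 (FDR 6.21e-20) was the largest rise among the nitrogen lists, and all 0 mM libraries lay above all 2 mM ones. The amino acid permeases AAP4 and AAP5 were higher at 0 mM (1.35 ± 0.09 and 1.79 ± 0.11). LHT1, which takes up amino acids into leaf cells, was lower (13.6, 8.81 and 12.6 against 36.8, 24.3 and 30 CPM). Breakdown of branched-chain amino acids was lower at 0 mM for BCAT2 (-1.63), DIN4 (-1.30) and MCCA (-1.11), and the proline synthesis genes P5CS1 and P5CS2 were higher (0.50 and 0.96). In that list of 10, 2 were higher (20%) and 5 lower (50%).

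Starch degradation genes were mostly lower at 0 mM, and starch synthesis genes went both ways. GBSS1 (AT1G32900), which makes amylose and is a known target of CCA1 and LHY, had 575, 516 and 499.5 CPM at 0 mM and 18.5, 13.6 and 13.6 CPM at 2 mM. The 0 mM libraries were higher by 5.12 ± 0.12 (FDR 5.02e-21), with a mean of 174 CPM at 10 mM. Of 17 tested starch synthesis genes, 7 were higher and 5 lower (41.2% and 29.4%, all genes: 20.3% and 22.1%). APL3, a subunit of ADP-glucose pyrophosphorylase, changed by 1.71 ± 0.13, and the synthase SS4 and the branching enzyme SBE2.1 were lower (-1.03 ± 0.13 and -1.04 ± 0.10). Of 17 tested starch degradation genes, 2 were higher and 11 lower, with a median of -0.71. PHS1 and PHS2, the glucan phosphorylases, had 28.3, 22.3 and 22 against 176, 166 and 178 CPM and 25.7, 30.6 and 32.4 against 207, 201 and 205 CPM. The debranching enzyme ISA3 (-2.86 ± 0.22), the amylase AMY3 (-2.56 ± 0.12), the disproportionating enzymes DPE1 (-2.58 ± 0.16) and DPE2 (-1.41 ± 0.11), and the glucan water dikinase SEX1 (-1.64 ± 0.082) were all lower at 0 mM. The members that rose were the beta-amylases BAM3 (CT-BMY; 677, 709.5 and 665 against 160.4, 152 and 151 CPM) and BAM1 (1.43 ± 0.075), which release maltose. In the starch degradation genes that fell, no 0 mM library reached the lowest 2 mM one for PHS1, PHS2, ISA3, AMY3, DPE1, DPE2 and SEX1.

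Of 19 tested genes of sugar transport and sucrose or raffinose synthesis, 8 were higher and 5 lower at 0 mM (42.1% and 26.3%, all genes: 20.3% and 22.1%). The hexose transporters STP1 and STP13 (MSS1) had 88.8, 85.2 and 93.9 against 584, 409 and 559 CPM and 3.4, 5.29 and 5.18 against 44.8, 38.5 and 40.5 CPM, so both were lower at 0 mM in all libraries. SPS4F, a sucrose phosphate synthase, was higher (2.64 ± 0.11), as were the sucrose exporter SWEET11 (1.46 ± 0.12), the galactinol synthases GOLS1 and GOLS2 (1.09 and 1.37) and the raffinose synthase RS5 (1.66 ± 0.14). The cold-induced galactinol synthase GOLS3 was lower (-1.62 ± 0.15).

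The phenylpropanoid and flavonoid pathway was higher at 0 mM nearly throughout. Of 19 tested enzyme and transport genes, 18 were higher, each by at least 2-fold, and none lower, with a median log2 fold change of 2.80 (all genes: -0.029), and the list summed to 2096 to 2536 CPM at 0 mM, 445 to 506 CPM at 2 mM and 1333 to 1453 CPM at 10 mM. At the head of the pathway, PAL1 and PAL2, which open it from phenylalanine, changed by 2.33 ± 0.12 and 1.38 ± 0.088. TT4 (AT5G13930), chalcone synthase, had 531, 453 and 443 CPM at 0 mM and 37.2, 63.7 and 61.6 CPM at 2 mM (3.13 ± 0.15). F3H, flavanone hydroxylase, had 261, 193 and 196 against 13.1, 11.3 and 11.4 CPM (4.18 ± 0.16), and FLS1, flavonol synthase, had 135, 101 and 87.1 against 5.88, 7.4 and 4.74 CPM (4.15 ± 0.20). Every 0 mM library was above every 2 mM library for these 3 genes. The late anthocyanin genes rose as well: DFR had 53.1, 40.8 and 34.9 against 3.7, 3.7 and 7.76 CPM, LDOX changed by 2.95 ± 0.23, UF3GT by 4.54 ± 0.51 and the transport protein TT19 (GSTF12) by 2.54 ± 0.27. BGLU10, an anthocyanin glucosyltransferase, was the one member not called (-0.086 ± 0.16).

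The regulators of the pathway did not all move one way. PAP1, the main MYB activator of anthocyanin synthesis, had 40.6, 36 and 44.4 CPM at 0 mM and 6.96, 5.76 and 7.97 CPM at 2 mM (2.55 ± 0.17), with 9.12 CPM at 10 mM. Its relatives had few reads: PAP2 (MYB90) had 27 counts over the 0 mM group against 1 over the 2 mM group (ratio 24.1, 95% interval 3.97 to 986) and MYB113 had 19 against 1 (ratio 16.9, 2.69 to 704). The partner TT8 had 40 against 3 (ratio 11.9, 3.79 to 60.1). TTG1, a further component of the activator complex, was slightly lower (-0.36 ± 0.085). The flavonol regulator MYB111 was higher (1.08 ± 0.21). MYBL2, a repressor of the pathway, had 44.2, 56 and 47.3 CPM at 0 mM and 208, 186 and 193 CPM at 2 mM and fell by 1.99 on the log2 scale. Over the list of regulators, 5 of 10 tested were higher and 2 lower (all genes: 20.3% and 22.1%), and 3 were higher when only the 6 libraries were fitted.

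**Figure D4:**
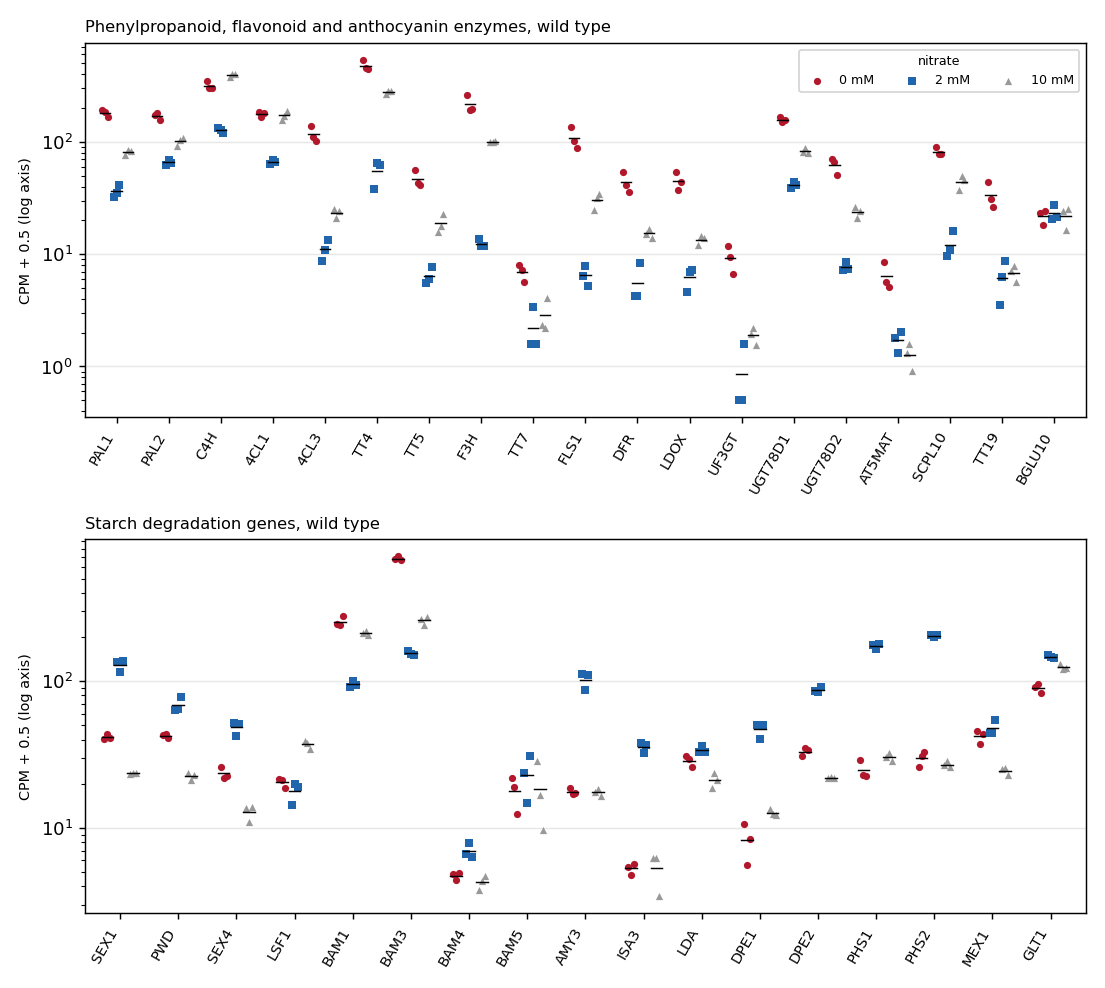
Level of each tested phenylpropanoid, flavonoid and anthocyanin gene (top) and starch degradation gene (bottom) in each WT library, as CPM plus 0.5 on a log axis, with a bar at the mean of 3 libraries; colours as for the clock genes. In the top panel 18 of 19 genes are called higher at 0 mM, and in the bottom panel 11 of 17 are called lower and BAM1 and BAM3 higher.

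Photosynthesis genes split between light harvesting and carbon fixation. Of 46 tested photosystem and antenna genes, 37 were lower at 0 mM and 4 higher, with a median of -0.45, and 1 of the lower ones by at least 2-fold. LHCB1.4 (LHB1B1), a photosystem II antenna gene, had 1175, 1178 and 1232 CPM at 0 mM and 4023, 3815 and 4053 CPM at 2 mM (-1.73 ± 0.068), and LHCB3 had 2633, 2927 and 2686 against 4188, 4130 and 4185 CPM (-0.60 ± 0.057). No library of one dose overlapped the other for either gene. The LHCB1 copies are near-identical, so the split of their reads is uncertain. LHCB4.3 and LHCB7 were higher at 0 mM (2.17 ± 0.18 and 1.52 ± 0.16), from 22, 33.7 and 26.3 CPM to 159, 115 and 97 CPM for LHCB4.3. The photosystem II subunit gene PSBO2 had 506, 424 and 492 CPM at 0 mM and 653, 177 and 652 CPM at 2 mM, and PSBY had 659, 567 and 687 and 1042, 402 and 972 CPM. The second 2 mM library stood far below its group for both. Neither passed the test with it (FDR 0.890 and 0.211), and without it both were lower at 0 mM, by 0.45 ± 0.16 (FDR 0.0326) and 0.65 ± 0.14 (FDR 0.000614) on the log2 scale.

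Of 20 tested Calvin cycle genes, 16 were higher at 0 mM and 1 lower, with a median of 0.48. FBA1, a plastid aldolase, had 2052, 2133 and 1992 CPM against 679, 772 and 696 CPM (1.52 ± 0.06), and the sedoheptulose bisphosphatase SBPASE had 499.8, 508 and 443 against 207, 206 and 226 CPM (1.18 ± 0.09). RBCS1B, a Rubisco small subunit, was higher by 1.24 ± 0.10, with reads that near-identical copies may share. CP12-1, which holds enzymes of the cycle inactive in the dark, was the lower one (-0.56 ± 0.059). All 9 tested photorespiration genes had positive log2 fold changes of 0.39 to 0.89, and 8 passed the test. GOX1, glycolate oxidase, had 1295, 1274 and 1232 against 674, 716 and 668 CPM, and GLDP1, a glycine decarboxylase subunit, changed by 0.87 ± 0.066.

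In chlorophyll synthesis, 4 of 11 were higher and 3 lower (36.4% and 27.3%, all genes: 20.3% and 22.1%), and the light-dependent protochlorophyllide reductases stood out. PORB (AT4G27440) had 86.9, 77.8 and 86 CPM at 0 mM and 1223, 1195 and 1267 CPM at 2 mM, and PORA, the form known from dark-grown seedlings, had 0.755, 1.76 and 1.11 against 32.2, 28.2 and 34.5 CPM. Both were lower at 0 mM in all libraries, by 3.88 and 4.69 on the log2 scale, and PORB had the smallest FDR of the named genes (7.34e-23). Their means at 10 mM were 129 and 6.4 CPM. In chlorophyll breakdown, 2 of 8 were higher and 3 lower (all genes: 20.3% and 22.1%). PPH, a pheophytinase, was lower (-0.80 ± 0.092) and NYE1, which starts the breakdown, higher (0.58 ± 0.11).

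Metal genes were higher or did not pass the test. Of 21 tested iron and copper genes, 14 were higher at 0 mM and none lower, with a median of 0.90. PYE, a regulator of iron balance, had 64.4, 58 and 68.4 CPM at 0 mM and 12.6, 13.6 and 16.6 CPM at 2 mM (2.16 ± 0.15), and the iron-transport gene OPT3 changed by 1.53 ± 0.11. The nicotianamine synthases NAS1 and NAS4, which make a metal chelator, changed by 1.40 ± 0.16 and 1.71 ± 0.18, and the iron deficiency regulators bHLH38 and BHLH100 by 1.58 ± 0.39 and 1.66 ± 0.38. Both were higher still at 10 mM, at 85.2 and 69.6 CPM against 17.8 ± 2.82 and 12.7 ± 5.24 CPM at 0 mM. COPT2, a copper transporter, had 41 counts over the 0 mM group against 3 (ratio 12.2, 95% interval 3.89 to 61.5).

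Of 20 tested phosphate starvation genes, 5 were higher (25%) and 6 lower (30%), not far from the shares over all genes (20.3% and 22.1%). The number higher was 3 by DESeq2 or without the second 0 mM or the third 2 mM library. AT4, a noncoding RNA of the phosphate response, had 12.3, 11.8 and 9.43 CPM at 0 mM, 25, 24.7 and 26.7 CPM at 2 mM and 386 ± 43.3 CPM at 10 mM. MGD3 (MGDC), which makes galactolipids under phosphate shortage, was lower (-1.42 ± 0.36) and the phosphatase PAP17 higher (0.77 ± 0.14). Of 13 tested sulfur genes, 6 were higher (46.2%) and 2 lower (15.4%), and 1 was lower without the first or the third library of either dose. APR2, the main sulfate-reducing enzyme of leaves, had 515, 474 and 516 against 212, 220.2 and 214 CPM (1.22 ± 0.07), and GGCT2;1, which recycles glutathione, was lower (-2.79 ± 0.50).

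Glucosinolates are sulfur- and nitrogen-rich defence compounds of the cabbage family. Of 17 tested genes of the aliphatic branch, 14 were higher at 0 mM and none lower, with a median of 0.85. MYB28, the main activator of that branch, had 152, 138 and 155 CPM at 0 mM and 55.3, 65.2 and 65.7 CPM at 2 mM (1.26 ± 0.092), and the chain-elongation gene MAM3 (IMS2) and the side-chain oxygenase FMO-GSOX1 changed by 1.20 ± 0.17 and 1.24 ± 0.14. Of 12 tested indole glucosinolate and camalexin genes, 9 were higher and 3 lower. MYB34, an activator of the indole branch, was higher (1.30 ± 0.14), and MYB51, a related activator, and PEN2, which breaks indole glucosinolates down, were lower (-0.81 ± 0.15 and -0.95 ± 0.087). The camalexin enzymes were uneven. PAD3 had 29.3, 9.79 and 4.07 CPM at 0 mM and 2.18, 1.03 and 1.29 CPM at 2 mM, and CYP71A13 had 18.3, 5.68 and 0.554 and 1.52, 0.822 and 0.862 CPM. The first 0 mM library was the highest for both. Without it, the change went from 3.25 ± 0.58 to 2.22 ± 0.46 for PAD3 (FDR 0.000395) and from 2.91 ± 0.71 to 1.53 ± 0.65 for CYP71A13, which then missed the threshold (FDR 0.0666).

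Of 21 tested salicylic acid and pathogen defence genes, 2 were higher (9.5%) and 5 lower (23.8%), against 20.3% and 22.1% of all genes. The number lower was 1 to 3 when the first or second 0 mM or the first or second 2 mM library was left out, and 8 with no filter on low counts. The number higher was 0 or 1 without the second or the third 0 mM library or any one of the 2 mM libraries. PR1, the best known marker of that defence, had 2.64, 2.15 and 1.29 CPM at 0 mM and 6.75, 15.4 and 2.59 CPM at 2 mM (FDR 0.0391), and its call was lost without any one of 5 libraries, the third at 2 mM being the exception. Of 30 tested jasmonic acid genes, 5 were higher (16.7%) and 10 lower (33.3%), against the same 20.3% and 22.1% of all genes. AOC2, an enzyme of jasmonate synthesis, had 62.5, 46 and 45.3 CPM at 0 mM and 289, 290.5 and 313 CPM at 2 mM (-2.54 ± 0.15), and the regulator ORA59 changed by -1.71 ± 0.32. LOX4, a lipoxygenase of the wound response, and the repressor JAZ5 were higher (1.06 ± 0.26 and 0.91 ± 0.24). The defensin gene PDF1.2c had 41.4, 5.49 and 1.11 CPM at 0 mM and 5.44, 8.22 and 6.9 CPM at 2 mM, with the first 0 mM library far above the rest, and did not pass the test.

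Cold and abscisic acid genes went both ways. Of 32 tested, 11 were higher and 11 lower at 0 mM (34.4% each, all genes: 20.3% and 22.1%). The number lower was 7 by DESeq2 or without the first 0 mM, the first 2 mM or the third 2 mM library. Among those lower were cold-induced protective proteins: COR15B had 22.9, 21.9 and 22.9 CPM at 0 mM and 245, 230.3 and 242 CPM at 2 mM (-3.40 ± 0.11), and COR47, RD29A (LTI78) and XERO2 (LTI30) changed by -1.50 ± 0.10, -1.65 ± 0.14 and -2.96 ± 0.28. Among those higher were phosphatases that hold down abscisic acid signalling, HAB1 (101, 102 and 91.5 against 18.9, 8.84 and 15.1 CPM, 2.78 ± 0.15) and HAI1 (3.21 ± 0.31). ABA1, an early enzyme of abscisic acid synthesis, changed by 1.23 ± 0.078, and the transcription factors ABF2 and ABF3 by 1.43 ± 0.11 and 1.51 ± 0.12.

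Of 20 tested heat shock genes, 14 were higher at 0 mM and 1 lower, with a median of 0.96. HSP70 had 154, 195 and 224 CPM at 0 mM and 13.1, 11.9 and 14.2 CPM at 2 mM, with a mean of 286 CPM at 10 mM (3.87 ± 0.16). HSFA2, a heat shock factor, had 19.8, 26.4 and 32.4 against 0.653, 1.85 and 0.862 CPM (4.50 ± 0.39), and the chaperones HSP90.1 and HSP101 changed by 2.75 ± 0.24 and 2.56 ± 0.26. All 0 mM libraries were above all 2 mM libraries for HSP70 and HSFA2. DREB2A, which links drought and heat responses, was the lower member (-2.43 ± 0.25).

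Autophagy genes, which carry cell contents to the vacuole for recycling, were lower at 0 mM or did not pass the test. Of 23 tested, 16 were lower and none higher, with a median of -0.49 and 2 lower by at least 2-fold. ATG8E, a ubiquitin-like protein of the autophagosome membrane, had 30.4, 37.2 and 30.5 CPM at 0 mM and 116, 98.7 and 116 CPM at 2 mM (-1.75 ± 0.12). ATG8F had 106, 114 and 111 against 262, 224 and 248 CPM (-1.15 ± 0.073), and NBR1, a cargo receptor, 161, 183 and 183 against 310, 282 and 299 CPM (-0.76 ± 0.082). The groups did not overlap for these 3 genes. Leaf senescence genes went both ways, with 5 of 15 higher and 6 lower (33.3% and 40%, all genes: 20.3% and 22.1%). The regulator NAP was higher (1.37 ± 0.18), as was SAG13 (1.84 ± 0.28), and the regulator ORS1 (NAC3) lower (-1.29 ± 0.14). SAG12, the usual marker of late senescence, had 0, 0.196 and 2.96 CPM and 0, 0 and 8.19 CPM, with reads mainly in the third library of each dose, and did not pass the test.

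Genes of elongation growth were mostly lower at 0 mM. Of 20 tested growth, light and brassinosteroid regulators, 12 were lower and 2 higher. HBI1, a growth-promoting factor, had 64, 69 and 74.5 CPM at 0 mM and 321, 249.6 and 274 CPM at 2 mM (-2.02 ± 0.093). PIF4, which drives growth in warmth and shade, was lower (-1.25 ± 0.072), as were the light factor HFR1 (-1.36 ± 0.20) and the brassinosteroid-induced factor BEE1 (-1.34 ± 0.15), while PIF7 was higher (1.02 ± 0.12). The other higher member, PIF5 (PIL6, 0.22 ± 0.08), was not called without the second or the third 0 mM or the first or second 2 mM library. Of 22 tested genes of auxin response and cell wall loosening, 15 were lower and 2 higher, with a median of -0.89. IAA29, an auxin response repressor, had 1.89, 2.94 and 4.81 CPM at 0 mM and 39.6, 45.2 and 41.8 CPM at 2 mM (-3.70 ± 0.21), and the small auxin-induced genes SAUR19, SAUR22 and SAUR23 changed by -1.81, -2.33 and -1.84. The expansin gene EXPA8 was lower (-1.46 ± 0.12) and EXPA5 and EXPA10 were higher (0.84 ± 0.10 and 1.13 ± 0.13).

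Few genes of cell division and protein synthesis passed the test. Of 14 tested cell division genes, 2 were lower (14.3%) and none higher, below the shares over all genes (22.1% and 20.3%). The changes were -0.60 for PCNA1 and -0.47 for PCNA2, the clamp of DNA replication. Of 20 tested ribosome and nucleolus genes, 1 was higher and 2 lower, below the shares over all genes, and the largest of those changes was -0.61 ± 0.088 for the nucleolin NUC1. The ribosome counts ran from 0 to 3 higher and 1 to 2 lower over the other fits and left-out libraries. Of 11 tested cytokinin response genes, 3 were higher and 2 lower (all genes: 20.3% and 22.1%). The response regulators ARR15 and ARR5 changed by 1.01 ± 0.19 and -0.65 ± 0.15. Without the second 0 mM library 5 cytokinin genes were higher and 1 lower, and 1 was lower without the first library of either dose. Of 12 tested flowering time genes, 3 were higher and 4 lower (all genes: 20.3% and 22.1%). The number lower was 2 by DESeq2 or without the first 0 mM, the third 0 mM or the first 2 mM library. SOC1 (AGL20), which promotes flowering, had 22.7, 20.8 and 22.9 CPM at 0 mM and 99, 97.5 and 93.3 CPM at 2 mM (-2.12 ± 0.14), and AGL24, its partner, was higher at 0 mM (1.25 ± 0.16). FT, LFY and AP1 were too low in these rosettes to be tested.

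Outside the lists, the genes with the largest changes and no overlap included further factors tied to light and the clock. ASG4 (AT1G01520), a MYB-related gene, had 64.2, 57.2 and 53.8 CPM at 0 mM and 0, 1.23 and 1.08 CPM at 2 mM (6.18 ± 0.26). It was written into the morning clock list as RVE3 but dropped, since the reference table did not pair its ID with that name. BBX32, a B-box repressor of light responses, had 54.8, 60.3 and 65.8 against 0.653, 2.26 and 1.29 CPM (5.39 ± 0.20), and HYH, a bZIP factor of light signalling, 76.5, 74.8 and 69.7 against 2.39, 1.85 and 2.16 CPM (5.10 ± 0.19). LZF1, a B-box factor of the same pathway, went the other way, with 3.78, 2.94 and 3.33 CPM at 0 mM and 72.5, 62.1 and 73.3 CPM at 2 mM (-4.36 ± 0.15). The surface-lipid genes WSD1, which makes wax esters, and KCS2, a fatty acid elongase, were higher at 0 mM (5.15 ± 0.33 and 4.66 ± 0.26), as were AO, L-aspartate oxidase of NAD synthesis (5.04 ± 0.21), and cPT4, a prenyltransferase (5.08 ± 0.15). Among those lower at 0 mM, MEE14 had 4.53, 6.07 and 13.9 CPM against 708, 648 and 767 CPM (-6.42 ± 0.19). DOG1, known for seed dormancy, had 0.944, 0.588 and 1.48 against 45.3, 30.2 and 39.5 CPM (-5.21 ± 0.25), and the abscisic acid response factor ABF1 1.51, 1.37 and 1.29 against 32.2, 28.4 and 30.6 CPM (-4.43 ± 0.21). WCRKC1, a thioredoxin-like gene, and Fes1B, related to chaperone cofactors, changed by -4.59 ± 0.22 and -5.00 ± 0.22. At 10 mM the means of the genes higher at 0 mM were 43.4 CPM for ASG4, 73.7 for BBX32, 69 for HYH, 6.9 for WSD1, 69.5 for cPT4, 8.13 for AO and 8.83 for KCS2. Those of the genes lower at 0 mM were 5.22 CPM for LZF1, 47.1 for MEE14, 4.46 for DOG1, 4.23 for ABF1, 1.6 for WCRKC1 and 2.72 for Fes1B. On the log scale, the 10 mM mean was nearer to that at 2 mM for KCS2 (0 mM 59.8 ± 1.57, 2 mM 2.34 ± 0.642 CPM), about midway for AO (0 mM 47.3 ± 5.38, 2 mM 1.42 ± 0.265 CPM) and nearer to that at 0 mM for the other genes of this paragraph.

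The WT change was set beside that of era1, whose mutated gene encodes the beta subunit of protein farnesyltransferase, through the interaction of genotype and dose. The change differed between genotypes for 4234 genes (23.1%), more positive in era1 for 1759 (9.58%) and more negative for 2475 (13.5%). The core morning genes LHY and CCA1 changed by 4.33 ± 0.09 and 4.29 ± 0.092 in era1, and the era1 minus WT differences of -0.33 ± 0.13 and 0.30 ± 0.14 did not pass the test (FDR 0.0659 and 0.132). Among genes of nitrate reduction and nitrate-induced regulation the interaction was called for 12 of 23. The 5 genes that follow were picked with their values known. Of them, CLC-A belongs to the nitrate transport list and bHLH38 to the iron and copper list. LBD39 changed by -0.66 ± 0.16 in WT and -4.91 ± 0.33 in era1 (interaction FDR 3.61e-08), CLC-A by -0.85 ± 0.091 and -3.18 ± 0.11 (FDR 2.77e-11), and NIR1 was higher at 0 mM in WT but lower in era1 (0.60 ± 0.12 and -1.44 ± 0.12, FDR 4.03e-09). BT5 and bHLH38 also took opposite signs, at 1.36 ± 0.16 and 1.58 ± 0.39 in WT and -2.28 ± 0.20 and -3.93 ± 0.60 in era1 (interaction FDR 1.48e-10 and 3.44e-06).

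**Figure D5:**
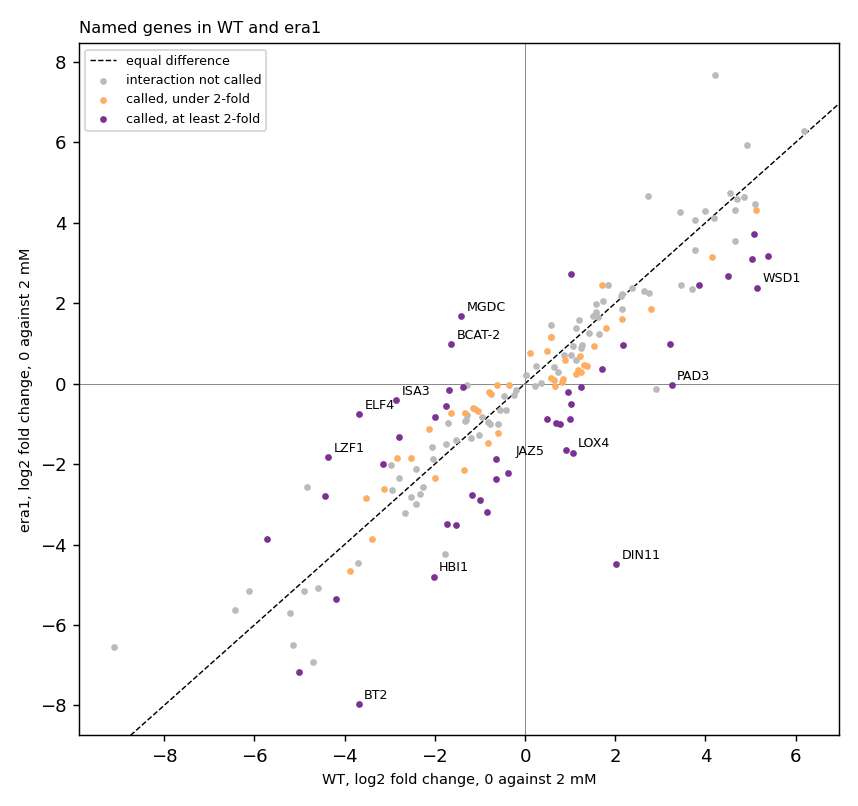
Log2 fold change (0 against 2 mM nitrate) of the 176 named genes in WT (horizontal axis) and in era1 (vertical axis), with the dashed line at equal change. Apart from the clock genes, these genes were picked by their called WT change, which is part of the interaction. Purple points are the 46 genes whose interaction was called with a difference of at least 2-fold, orange points the 41 with a smaller one; of the purple points, DIN11, BT2 and PAD3 lie furthest below the line and MGDC and ELF4 furthest above. MYB90, with few reads, lies further above (era1 minus WT 3.48 ± 2.30), but its interaction was not called (FDR 0.3).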

How the data were processed

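The authors deposited read counts per gene for each of the 18 libraries, made from polyA-selected 3' tag libraries read from a single end. Per the submitters' processing notes, reads were aligned with TopHat2 to TAIR10. The layout of the tables, with its summary counters, is that of htseq-count; version, annotation and strand setting were not found in the labels. Each library listed 32744 genes and 5 summary counters, which entered neither the library sizes nor any test. Reads not assigned to one place were 4.97 ± 0.245% at 0 mM and 4.88 ± 0.137% at 2 mM, and reads outside genes 5.43 ± 0.259% and 4.96 ± 0.165% (SD, n = 3). Symbols came from the reference table of RefSeq genes, which held 32548 of the IDs, 10804 with a symbol.

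Groups were taken from the sample titles. Counts were fitted with edgeR 4.0.16 (quasi-likelihood, TMM, filterByExpr at a minimum count of 10 and a total of 15) under R 4.3.3, with 1 mean for each of the 6 groups over all 18 libraries, and p-values were adjusted by Benjamini-Hochberg over 18358 genes. The CPM values were computed from the counts on TMM library sizes. The interaction term compared the dose effect in era1 with that in WT. Exact permutation tests used SciPy 1.17.1, and figures matplotlib 3.10.9. Replicates of a group differed by more than counting noise. Counts were simulated for this comparison (18088 genes) with few genes changed. In WT at 0 mM, 67, 67 and 66 genes were given changes of 1.5, 2 and 4-fold. Of them, 67.2%, 89.6% and 98.5% were called. All other genes kept 1 mean over the 6 groups, and 13 of 17888 were called. In the data 42.4% of genes were called, so the simulated share of false calls does not carry over to them.

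The members, the 36 gene lists and the 5 marker lists were chosen with earlier results of these data known. Of 731 list entries, 698 were kept because the reference table paired their ID with the name written, as symbol or synonym. The other 33 were dropped, among them entries whose ID is in the reference table. The morning clock list lost RVE3 (ASG4), RVE5 and RVE6. The rule for names took up to 12 genes higher and 12 lower among called genes with a symbol, no overlap and a mean of at least 5 CPM. It also took every tested clock gene, and up to 3 called members of each other list plus up to 2 in its rarer direction, 176 genes in all. Alternatives were DESeq2 1.42.0, its size factors in edgeR, no filter, only the 6 libraries, a replicate block and each library left out. Intervals and floors cover counting error only, since they use counts pooled over a group and leave out the spread between its libraries. No molecular identifiers were used to remove duplicate reads. No sequences are printed.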

Additional observations from a re-analysis of the deposited data

Results flagged for a closer look

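A difference between WT and era1 in the response to 0 against 2 mM nitrate was called for 87 of the 176 named genes by the interaction term of edgeR's quasi-likelihood test (FDR under 0.05). Over all genes tested the share was 23.1%. Apart from the clock genes, the named genes were picked by their called WT change, which is part of the interaction. Their share called therefore cannot be read against that of all genes. The 46 named genes with a called difference of at least 2-fold are given here as era1 minus WT on the log2 scale, and the differences of the other 41 were smaller.

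Among the clock and light genes, the change was more positive in era1 for ELF4 by 2.91, LZF1 by 2.53, DREB1A by 1.88 and GI by 1.20, and more negative for BBX32 (-2.22), the evening complex gene PCL1 (-2.00) and the growth factor HBI1 (-2.78). ELF4, for instance, changed by -0.76 ± 0.28 in era1 and -3.68 ± 0.32 in WT.

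The nitrogen and amino acid genes BT2 (-4.28), CLC-A (-2.33), AO (-1.94), P5CS1 (-1.37) and P5CS2 (-1.15) had more negative changes in era1, and LHT1 (1.28) and BCAT-2 (2.61) more positive ones. P5CS1 and P5CS2, higher at 0 mM in WT, changed by -0.88 ± 0.12 and -0.20 ± 0.072 in era1. BT2 was near the floor in era1 at 0 mM (0.0535 ± 0.0927 CPM, SD, n = 3), so the size of its difference is uncertain (SE 1.25).

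Of the sugar and starch genes, DIN11 (-6.50) and DIN10 (-1.16) were more negative in era1, and MSS1 (1.17), PHS2 (1.45) and ISA3 (2.45) more positive. The value of DIN11 (SE 1.81) rests in WT on its first 0 mM library. In era1 its mean at 0 mM was near the floor (0.0584 ± 0.101 CPM, SD, n = 3). The photosynthesis and leaf genes LHB1B1 (-1.76), LHCB4.3 (-1.22), RBCS1B (-1.33), CA1 (-1.66) and CA2 (-1.88) were more negative, and the chlorophyll breakdown gene NYE2 (AT4G11910, 1.53) and the flavonoid repressor MYBL2 (1.16) more positive.

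Defence and hormone genes with a more negative change in era1 were PAD3 (-3.29), LOX4 (-2.78), JAZ5 (-2.55), WRKY38 (-1.90), NIMIN1 (-1.60), HAI1 (-2.22), ARR6 (-1.84), RR5 (-1.74) and ARR15 (-1.52), and ABF1 (1.64) was more positive. LOX4 and JAZ5, higher at 0 mM in WT, were lower in era1 (-1.72 ± 0.21 and -1.64 ± 0.19). The WT change of PAD3, 3.25 ± 0.58, was 2.22 ± 0.46 without its first 0 mM library.

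The heat shock genes HSFA2 (-1.83), HSP70 (-1.41) and Fes1B (-2.18), the nutrient genes PAP17 (-1.77) and NAS4 (-1.34), the lipid and isoprenoid genes WSD1 (-2.77) and cPT4 (-1.35) and the root marker PYK10 (-1.24) were more negative in era1. The galactolipid gene MGDC (3.09) and the root marker FRO2 (1.71) were more positive.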

How the results depend on the processing

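The numbers of genes called stayed within 1.5 times. Against 7782 genes called, DESeq2 called 6721, edgeR with DESeq2 size factors 7743, no filter on low counts 7823 and a fit to the 6 libraries alone 7242. Leaving out 1 library gave 6791 to 7421. The interaction was called for 4234 genes, for 3396 by DESeq2, and for 3502 to 4269 with 1 library left out. Of the calls, 6588 to 7625 were also made in the same direction under each alternative. The median log2 fold change ran from -0.029 to 0.014, so the choice among these settings moved the median by less than 0.1. TMM and the DESeq2 size factors both assume that most genes do not change. A shift common to all genes could therefore not be seen in this median.

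Of the comparisons of single named genes with an alternative, 1850 kept their side of the threshold, 76 lost it, 1 gained it and none reversed. The losses fell on 22 genes, among them PR1, ARR6, PIL6 and HRS1; the causes were not tested. For the counts of list members, 826 stayed within 1.5 times and 76 did not, for example those of the salicylic acid genes (0 to 2 higher and 1 to 8 lower).

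Replicate numbers did not pair the libraries: the deviations of libraries with the same number correlated at -0.007, -0.007 and 0.073. A replicate block gave 7709 calls, 7610 of them in common and in the same direction, and 4172 interactions.

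With 1 library left out, the 0 minus 2 mM difference ran from 0.0725 to 0.246 percentage points for organelle reads (0.177 with all) and from 0.00537 to 0.226 for reads not assigned to one place (0.0841 with all). For reads outside genes it ran from 0.318 to 0.557 (0.467 with all). Those reads did not overlap between the doses, nor did the share of the top 10 genes (3.265% to 3.526% at 0 mM, 3.87% to 3.962% at 2 mM). The exact permutation test gave p = 0.1 for each, the smallest possible with 3 against 3.

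Depth limits the genes with under about 10 reads in a library, such as PRR5, FKF1 and NRT2.5 at 0 mM.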
